A study of Arabidopsis thaliana with 12 samples.

Results

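The genes described here are 8 glutathione transferases of Arabidopsis thaliana. GSTU15 (AT1G59670), GSTU20 (AT1G78370), GSTU21 (AT1G78360), GSTU22 (AT1G78340), GSTU23 (AT1G78320), GSTU27 (AT3G43800) and GSTU28 (AT1G53680) are of the tau class, and GSTL3 (AT5G02790) is of the lambda class. They were chosen as a list of names, with earlier results of these data known. They come from genes of these classes for which an array probe set is annotated with that single gene. Each had 1 probe set, so that they are 8 of the 13350 genes that a probe set names alone and 8 of the 22746 probe sets tested. Counted by GSTU and GSTL symbols alone, the gene table lists 27 tau and 3 lambda genes. Of these, 11 tau genes and 1 lambda gene had such a probe set, and GSTU16, GSTU18, GSTU25 and GSTU26 are the 4 with one that were not chosen.

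The study asked how roots respond to nitrate when the auxin receptor AFB3 is mutated. Whole roots of 15-day-old seedlings were sampled in 4 groups of 3 arrays: afb3-1 mutants given 5 mM KNO3, afb3-1 mutants given 5 mM KCl, plants of the accession Ws given 5 mM KNO3 and Ws plants given 5 mM KCl, each for 2 h. KCl supplies the same potassium without nitrate. All plants, controls included, had grown hydroponically with ammonium succinate as their nitrogen source and with sucrose in the medium, and the labels describe the replicates as independent biological ones. afb3-1 is a single mutant allele, and the other auxin receptors of its family remain in these plants. No probe set is annotated with AFB3 alone, so the genotype labels were not checked on the targeted gene.

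Glutathione transferases join the thiol of glutathione to electrophilic compounds, and plant cells move the conjugates into the vacuole through ABCC transporters. The tau class is specific to plants, carries a catalytic serine and is known for its response to herbicides, oxylipins and other stresses. Enzymes of the lambda class carry a catalytic cysteine instead and release glutathione from conjugates rather than adding it, and GSTL3 is known to act in this way on conjugates of flavonols such as quercetin. GSTU20 is also known as a protein partner of the jasmonate-conjugating enzyme FIN219/JAR1 in far-red light signalling.

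In the gene table, 6 of the 8 genes lie on chromosome 1. GSTU23, GSTU22, GSTU21 and GSTU20 are consecutive protein-coding genes there, in this order, followed by GSTU19. GSTU28 and GSTU15 lie elsewhere on chromosome 1, GSTU27 on chromosome 3, and GSTL3 on chromosome 5 next to GSTL1. Probe sets of recently duplicated neighbours can share sequence, and the probe sequences were not examined, so signal shared between these neighbours was not tested.

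The values were the deposited log2 signals, which ran from 0.40 to 12.12 over all probe sets and arrays. The median signal lay between 3.78 and 3.93 on the 12 arrays. The roots carried the root markers PYK10, a beta-glucosidase (10.13 to 11.15), and the root hair expansins EXPA7 (4.43 to 6.10) and EXPA18 (4.75 to 6.24) on all arrays, 3 of 11 listed root markers being measured. The 2 measured of 8 shoot photosynthesis markers also had signal, RCA (Rubisco activase) at 5.30 to 7.32 and LHCB4.1 (a light-harvesting protein) at 4.73 to 7.07. In whole roots, fewer cells of a type and less RNA per cell cannot be told apart. Precision is limited by having 3 arrays a group, and levels of different probe sets are not set against each other.

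**Figure D1:**
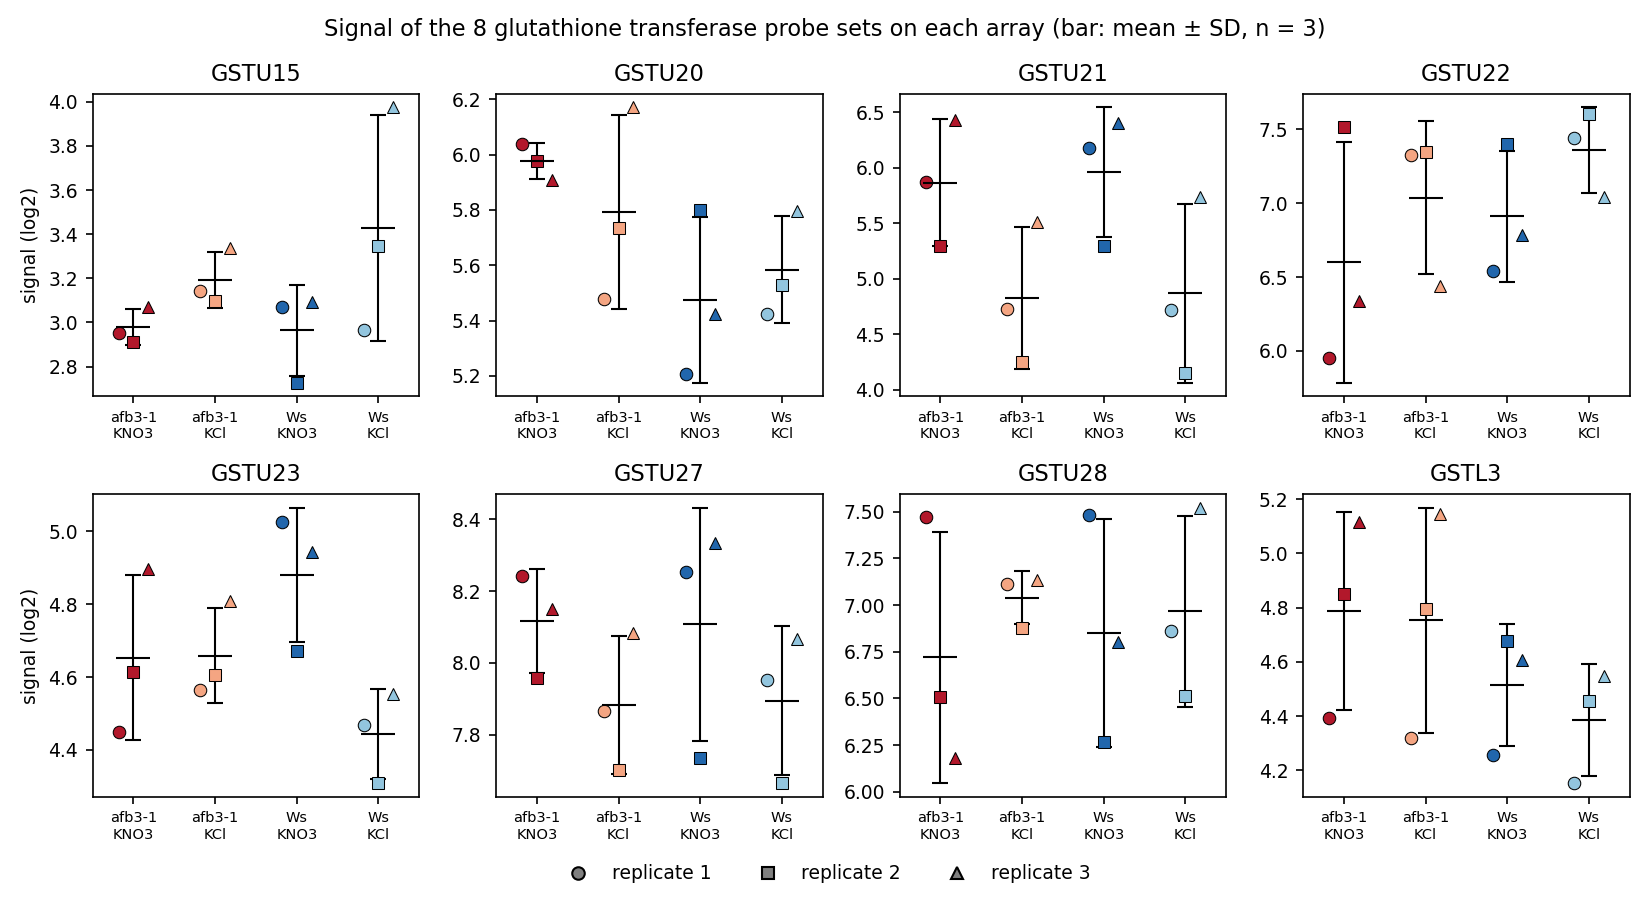
Log2 signal (vertical axis) of the 8 glutathione transferases on each of the 12 arrays, by group (horizontal axis, 3 arrays a group), with the group mean ± SD as bars and the replicate number as the marker shape. GSTU21 is the gene whose KNO3 means stand farthest above its KCl means, and its arrays spread over more than 1 log2 unit within each group.

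In the fit without a replicate block, none of the 8 genes passed the test for a nitrate response in either genotype. GSTU21 had the largest estimates, 2.05-fold higher in KNO3 than in KCl in afb3-1 and 2.13-fold in Ws, and GSTU23 had the smallest p, in Ws. The test was limma's moderated test over all probe sets with Benjamini-Hochberg adjustment at 0.05, and errors of differences are SEs. It called 2.76% of all probe sets with nitrate in afb3-1 and 2.89% in Ws, and 0 of the 8 genes in each. Unadjusted p was under 0.05 for 1 of the 8 in afb3-1 and for 2 of the 8 in Ws, beside 11.1% and 13.3% of all probe sets. The median nitrate difference of the 8 genes was 0.01 on the log2 scale in afb3-1 and 0.01 in Ws, with -0.0042 and -0.0342 over all probe sets.

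GSTU21 lies in the run of tandem genes on chromosome 1. Its log2 signal was 5.87, 5.30 and 6.43 in the 3 afb3-1 KNO3 arrays, against 4.73, 4.25 and 5.51 in the afb3-1 KCl arrays. In Ws it was 6.18, 5.30 and 6.41 in KNO3, against 4.72, 4.15 and 5.74 in KCl. In both genotypes the lowest KNO3 array, replicate 2, lay below the highest KCl array, replicate 3, so the groups overlapped, while each KNO3 array lay above the KCl array of the same number, by 0.92 to 1.14 in afb3-1 and by 0.66 to 1.46 in Ws. The log2 difference was 1.04 ± 0.46 (SE, 95% interval 0.03 to 2.05, limma adjusted p = 0.425) in afb3-1 and 1.09 ± 0.46 (SE, limma adjusted p = 0.327) in Ws, in the fit without a replicate block. With the replicate number as a fixed block over all arrays, GSTU21 was called in both genotypes. Its limma adjusted p was then 0.00226 in afb3-1 and 0.00181 in Ws. The labels do not say that a number is shared between salts, so that fit is not the main one. The SD within groups was 0.66, at percentile 98 of all probe sets.

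GSTU23, the first gene of that run, was measured more tightly, with an SD within groups of 0.17. In afb3-1 its signal was 4.45, 4.61 and 4.90 in KNO3, against 4.56, 4.61 and 4.81 in KCl, and the groups overlapped with nearly the same mean. In Ws it was 5.02, 4.67 and 4.94 in KNO3, against 4.47, 4.31 and 4.55 in KCl, and every KNO3 array lay above every KCl array. Groups that do not overlap were found for 1 of the 8 genes in Ws, beside 17.3% of all probe sets. The log2 difference was -0.01 ± 0.14 in afb3-1 (95% interval -0.32 to 0.30, limma adjusted p = 0.997) and 0.44 ± 0.14 in Ws (0.13 to 0.75, limma adjusted p = 0.165).

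The other 2 tandem genes, GSTU22 and GSTU20, had overlapping groups in both genotypes. GSTU22 had 5.95, 7.51 and 6.34 in afb3-1 KNO3, against 7.33, 7.34 and 6.44 in afb3-1 KCl. In Ws it had 6.54, 7.40 and 6.79 in KNO3, against 7.44, 7.60 and 7.04 in KCl. The KNO3 means were the lower ones in both genotypes, but replicate 2 was high in every group and the groups overlapped. The log2 differences were -0.44 ± 0.39 in afb3-1 (limma adjusted p = 0.811) and -0.45 ± 0.39 in Ws (limma adjusted p = 0.7). For GSTU20 they were 0.18 ± 0.19 in afb3-1 (limma adjusted p = 0.854) and -0.11 ± 0.19 in Ws (limma adjusted p = 0.870).

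GSTU15, which lies apart from the tandem run, was lower in all 3 afb3-1 KNO3 arrays (2.95, 2.91 and 3.07) than in all 3 afb3-1 KCl arrays (3.14, 3.10 and 3.34). That was 1 of the 8 genes with groups that do not overlap in afb3-1, beside 17% of all probe sets. The difference of -0.21 ± 0.21 did not pass the test (limma adjusted p = 0.842). In Ws the signal was 3.07, 2.73 and 3.09 in KNO3, against 2.96, 3.34 and 3.98 in KCl. These groups overlapped, and the estimate of -0.46 ± 0.21 (95% interval -0.93 to 0.00037, limma adjusted p = 0.377) was -0.19 without KCl replicate 3.

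The remaining 3 genes also had no call. GSTU27 had 8.24, 7.96 and 8.15 in afb3-1 KNO3, against 7.87, 7.70 and 8.08 in afb3-1 KCl, and 8.25, 7.74 and 8.33 in Ws KNO3, against 7.95, 7.67 and 8.07 in Ws KCl. The groups overlapped in both genotypes, and the log2 difference was 0.23 ± 0.17 in afb3-1 (limma adjusted p = 0.749) and 0.21 ± 0.17 in Ws (limma adjusted p = 0.684). GSTU28 had 7.47, 6.51 and 6.18 in afb3-1 KNO3, against 7.11, 6.87 and 7.13 in afb3-1 KCl, and 7.48, 6.26 and 6.80 in Ws KNO3, against 6.86, 6.51 and 7.52 in Ws KCl. Its groups overlapped too, with differences of -0.32 ± 0.37 in afb3-1 (limma adjusted p = 0.874) and -0.12 ± 0.37 in Ws (limma adjusted p = 0.934). GSTL3 had 4.39, 4.85 and 5.12 in afb3-1 KNO3, against 4.32, 4.79 and 5.15 in afb3-1 KCl, which are nearly the same 3 values. Its differences were 0.03 ± 0.23 in afb3-1 (limma adjusted p = 0.989) and 0.13 ± 0.23 in Ws (limma adjusted p = 0.874).

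The precision differed between the genes. The 95% interval of a nitrate difference reached 0.31 log2 units to either side for GSTU23, 0.38 for GSTU27, 0.42 for GSTU20, 0.46 for GSTU15 and 0.51 for GSTL3. It reached 0.82 for GSTU28, 0.85 for GSTU22 and 1.01 for GSTU21, with a median of 0.34 over all probe sets.

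**Figure D2:**
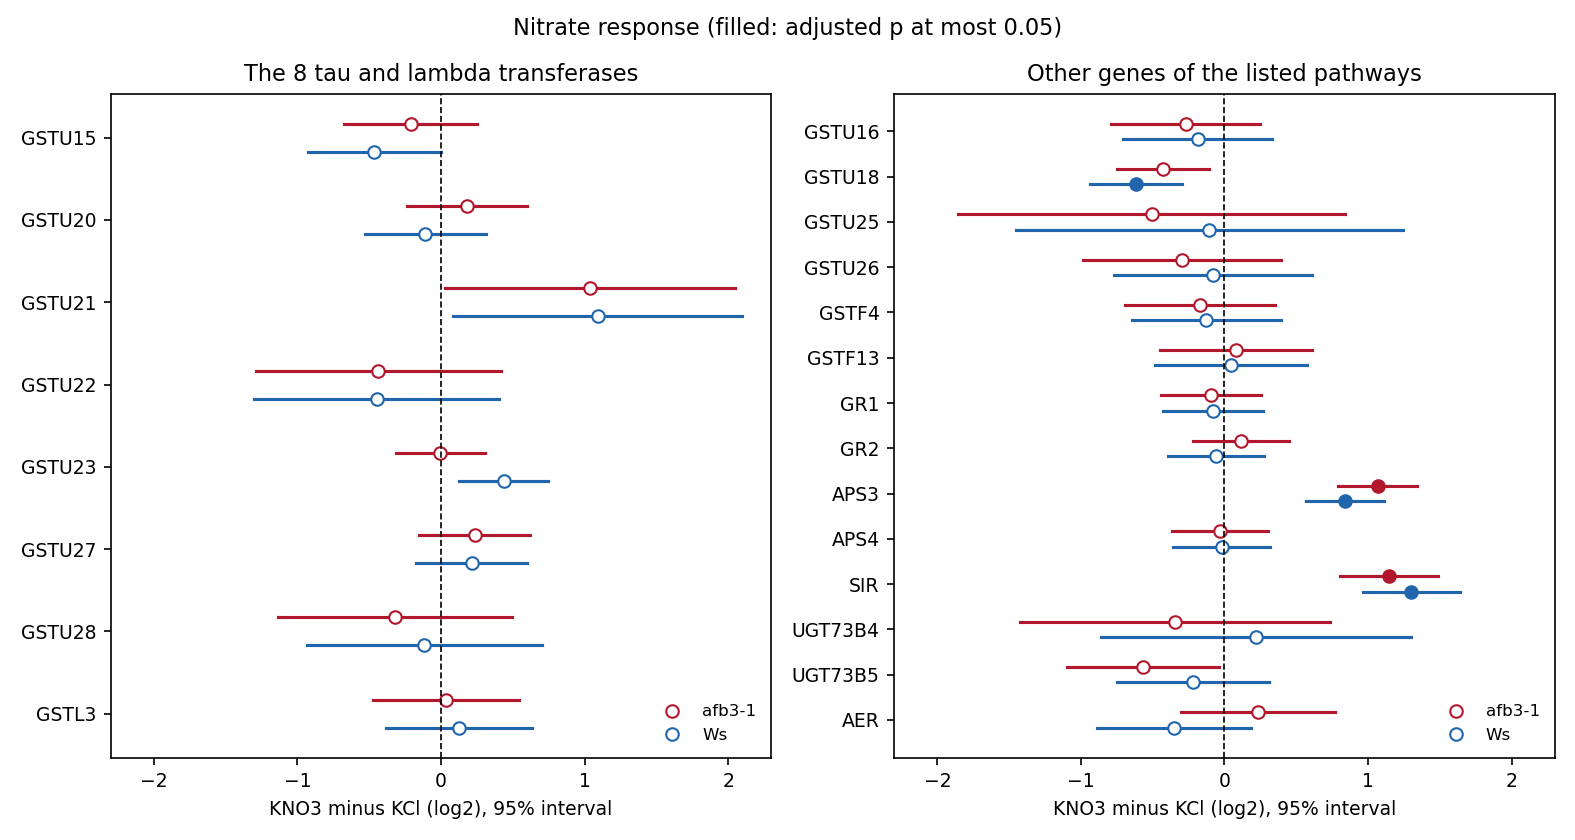
Log2 difference KNO3 minus KCl (horizontal axis) for each of the 8 genes in afb3-1 and in Ws, and for other measured genes of the listed pathways (right panel), with 95% intervals from the limma fit and filled points where the adjusted p was at most 0.05. Among the 8 genes the intervals of GSTU21 in both genotypes and of GSTU23 in Ws lie above 0 and no point is filled, whereas APS3 and SIR are filled in both genotypes and GSTU18 in Ws.

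Between genotypes, none of the 8 genes differed past the threshold in either salt, and neither did any other probe set. GSTU20 and GSTL3 had the higher signal in afb3-1 in every pair of same-numbered arrays. The share of all probe sets with the same direction in every pair was not computed, so these pair counts are descriptions only. Without a replicate block, limma called 0% of all probe sets in KNO3 and 0% in KCl, with unadjusted p under 0.05 for 2.37% and 2.65% of them. Of the 8 genes, 1 had such a p in KNO3 and 0 in KCl. Adjusted p was 1 for all 8 genes in both salts in that fit. With same-numbered arrays of a salt as a random block, limma also called 0 probe sets in each salt. Unadjusted p was then under 0.05 for 6.11% of them in KNO3 and 6.52% in KCl. GSTU20 had such a p in KNO3 (limma unadjusted p = 0.00542) and GSTL3 in KCl (limma unadjusted p = 0.048). Such p among the 8 genes were not counted in that fit.

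GSTU20 had 6.04, 5.98 and 5.91 in afb3-1 KNO3, against 5.21, 5.80 and 5.42 in Ws KNO3. All 3 mutant arrays lay above all 3 Ws arrays, which 8.68% of probe sets showed in either direction and 1 of the 8 genes did. The log2 difference was 0.50 ± 0.19 (95% interval 0.08 to 0.92, limma adjusted p = 1). With same-numbered arrays of a salt as a random block, the SE was 0.15 and the interval 0.18 to 0.82 (limma adjusted p = 0.763). In KCl GSTU20 had 5.48, 5.73 and 6.17 in afb3-1, against 5.42, 5.53 and 5.80 in Ws. These groups overlapped, and the difference was 0.21 ± 0.19 (-0.21 to 0.63). It ranged between 0.021 without afb3-1 KCl replicate 3 and 0.37 without afb3-1 KCl replicate 1.

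GSTL3, the lambda enzyme, had 4.39, 4.85 and 5.12 in afb3-1 KNO3, against 4.26, 4.68 and 4.61 in Ws KNO3. In KCl it had 4.32, 4.79 and 5.15 in afb3-1, against 4.15, 4.46 and 4.55 in Ws. The groups overlapped in both salts, and replicate 1 was the lowest in all 4 groups. The log2 differences were 0.27 ± 0.23 in KNO3 and 0.37 ± 0.23 in KCl. In KNO3 the estimate ranged between 0.11 without afb3-1 replicate 3 and 0.47 without afb3-1 replicate 1. In KCl it ranged between 0.17 and 0.58 without the arrays of the same numbers. A random block of same-numbered arrays of a salt gave GSTL3 an SE of 0.17. Its interval was then -0.090 to 0.64 in KNO3 (limma adjusted p = 0.871) and 0.0037 to 0.73 in KCl (limma adjusted p = 0.763). As a fixed block, the SE was 0.12. The interval was then 0.00082 to 0.55 in KNO3 (limma adjusted p = 0.646) and 0.095 to 0.64 in KCl (limma adjusted p = 0.651). GSTL3 was higher in afb3-1 in 6 of 6 same-numbered pairs, as was GSTU20, and GSTU22 was lower in 5 of 6, with differences of -0.31 ± 0.39 in KNO3 and -0.32 ± 0.39 in KCl.

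The shoot markers were also higher in afb3-1 in KNO3. Their pair differences stood in another order than those of GSTU20 and GSTL3 in KNO3, and in the same order in KCl. In KNO3, RCA had 6.78, 6.62 and 6.81 in afb3-1, against 5.30, 5.38 and 6.23 in Ws, and LHCB4.1 had 6.33, 5.79 and 5.89 in afb3-1, against 4.75, 4.73 and 5.49 in Ws. Both of the 2 measured markers were thus higher in every mutant array in KNO3, and each was higher in afb3-1 in 5 of 6 pairs over both salts. By number, the KNO3 pair differences were 1.48, 1.25 and 0.58 for RCA and 1.58, 1.06 and 0.40 for LHCB4.1. They were 0.83, 0.18 and 0.49 for GSTU20 and 0.14, 0.17 and 0.51 for GSTL3. In KCl the groups of both markers overlapped, and the pair differences rose from number 1 to number 3 for the markers and for GSTU20 and GSTL3. They were -0.24, 0.53 and 1.36 for RCA and -0.48, 0.17 and 1.21 for LHCB4.1. For GSTU20 they were 0.053, 0.20 and 0.37, and for GSTL3 0.17, 0.34 and 0.60. Neither marker passed the test (limma adjusted p = 1), and their part in the differences of GSTU20 and GSTL3 was not tested.

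**Figure D3:**
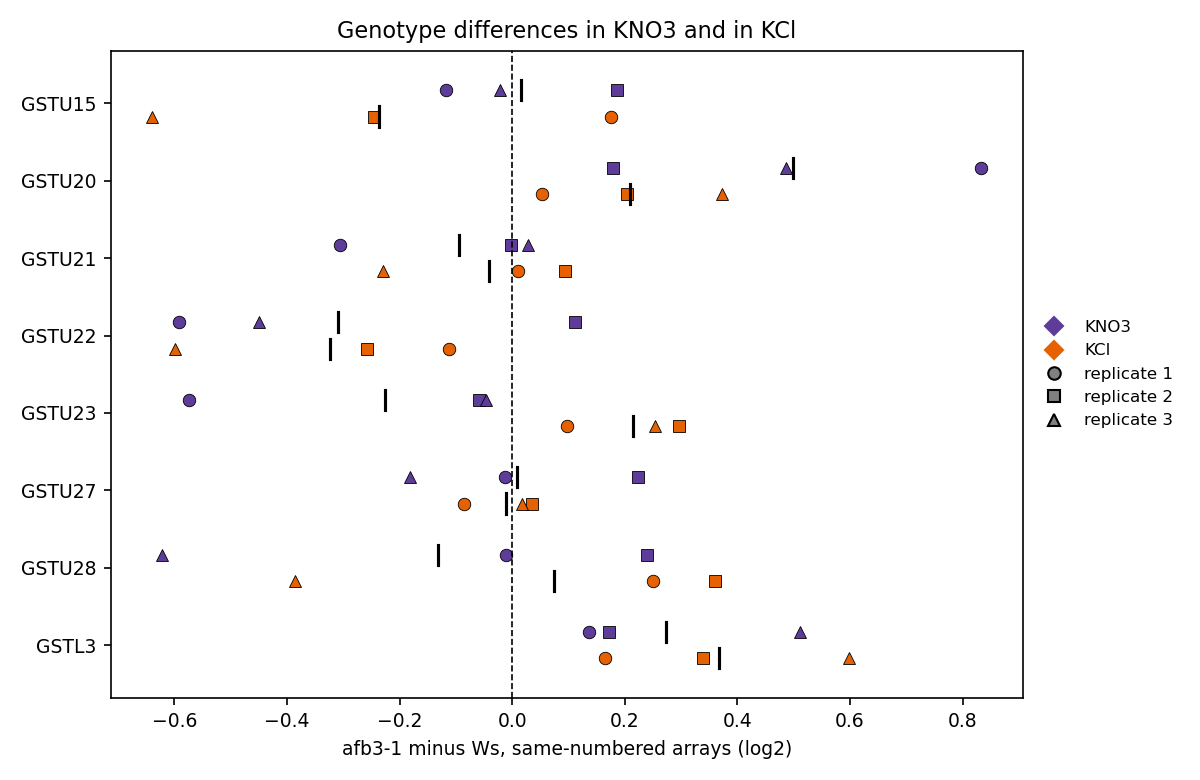
Log2 difference afb3-1 minus Ws of same-numbered arrays (3 pairs in KNO3 and 3 in KCl) for the 8 genes, with marker shapes for the replicate number and a vertical tick at the mean of each salt. All 6 points of GSTU20 and of GSTL3 lie above 0, and those of GSTU23 lie below 0 in KNO3 and above 0 in KCl.

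The other genes had no call either. GSTU27 differed by 0.01 ± 0.17 in KNO3 and by -0.01 ± 0.17 in KCl. GSTU21 differed by -0.09 ± 0.46 in KNO3 and by -0.04 ± 0.46 in KCl, GSTU28 by -0.13 ± 0.37 in KNO3 and 0.07 ± 0.37 in KCl, and GSTU15 by 0.02 ± 0.21 in KNO3 and -0.24 ± 0.21 in KCl. For GSTU23 the difference was -0.23 ± 0.14 in KNO3 and 0.22 ± 0.14 in KCl. In KCl its 3 afb3-1 arrays lay above its 3 Ws arrays by a narrow gap (4.56 against 4.55 at the closest), and this was 1 of the 8 genes, beside 6.85% of all probe sets in either direction.

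The nitrate response itself was then compared between genotypes, as the difference in afb3-1 minus the difference in Ws. Without a replicate block, limma called 0% of all probe sets and 0 of the 8 genes (adjusted p between 0.999 and 1). Its unadjusted p was under 0.05 for 2.92% of probe sets and 1 of the 8. That gene was GSTU23, with a difference of -0.44 ± 0.20 (95% interval -0.88 to -0.003, limma adjusted p = 0.999). The nitrate differences of GSTU23 in the 2 genotypes were therefore not shown to differ. For GSTU21 the response differed by -0.05, with an interval of -1.48 to 1.37. With same-numbered arrays of a salt as a random block, limma also called 0 probe sets, and 7.52% had an unadjusted p under 0.05. Such p among the 8 genes were not counted in that fit.

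The means in KNO3 and KCl stood in the same order in both genotypes for 6 genes. GSTU21, GSTU27 and GSTL3 had higher means in KNO3 than in KCl in both, and GSTU15, GSTU22 and GSTU28 lower ones. The share of all probe sets with the same order was not computed, so this is not read as a shared response. With 1 array omitted, the order changed for GSTL3 in afb3-1 (-0.18 to 0.23) and for GSTU28 in Ws (-0.43 to 0.18). GSTL3 had both afb3-1 means (4.79 ± 0.37 in KNO3 and 4.75 ± 0.42 in KCl) above both Ws means (4.51 ± 0.23 in KNO3 and 4.39 ± 0.21 in KCl; SD, n = 3 each). GSTU20 also had both afb3-1 means (5.98 ± 0.06 in KNO3 and 5.79 ± 0.35 in KCl) above both Ws means (5.48 ± 0.30 in KNO3 and 5.58 ± 0.19 in KCl; SD, n = 3 each). In the fit without a replicate block, none of the 8 genes differed past the threshold between any of the 4 pairs of groups tested.

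The variation between arrays of the same group was large for some of these genes. GSTU21, GSTU22 and GSTU28 had SDs within groups of 0.66, 0.55 and 0.53, at percentiles 98, 96.6 and 95.9 of all probe sets, and the median of all probe sets was 0.19. GSTL3 (0.32) was at percentile 81.7, GSTU15 (0.29) at 76.5, GSTU20 (0.25) at 69.1, GSTU27 (0.23) at 62.3 and GSTU23 (0.17) at 40.7. For several genes the variation within groups followed the replicate numbers. GSTU21 was lowest in replicate 2 and highest in replicate 3 in 4 of 4 groups. GSTU22 was highest in replicate 2 in 4 of 4 groups, GSTU27 lowest in replicate 2 in 4 of 4, GSTL3 lowest in replicate 1 in 4 of 4 and GSTU15 highest in replicate 3 in 4 of 4.

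Deviations of the arrays from their group means showed which genes varied together over the 12 arrays. These correlations are descriptions. The 188 pairs computed were the 8 genes with each other and with the 20 measured listed genes, the ones named were chosen after their values were seen, and same-numbered arrays deviate together, so the arrays are not 12 independent points. GSTU21 varied with GSTU27 (Pearson r = 0.87, Spearman rho = 0.87, r = 0.86 without the 2 arrays farthest from the median) and against GSTU22 (r = -0.77, rho = -0.73, r = -0.72 without those 2), its direct neighbour on the chromosome.

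GSTU22 varied with GSTU25, another tau gene (r = 0.94, rho = 0.99, r = 0.97 without the 2 farthest arrays), and with the stress-responsive glucosyltransferases UGT73B4 (r = 0.92, rho = 0.96, r = 0.92) and UGT73B5 (r = 0.91, rho = 0.89, r = 0.82). It also varied with HSP17.6C, a small heat shock protein gene, at r = 0.87 (rho = 0.83, r = 0.81). HSP17.6C ranged from 2.70 to 8.21 over the arrays and was highest in replicate 2 in 4 of 4 groups, as GSTU22 was. It was the 1 measured gene of 12 listed for heat and hypoxia, and it also varied against GSTU27 (r = -0.83, rho = -0.71, r = -0.85) and GSTU21 (r = -0.81, rho = -0.71, r = -0.80). The shoot marker LHCB4.1 had r = 0.71 with GSTU27 (rho = 0.85, r = 0.76) and r = 0.71 with GSTU21 (rho = 0.78, r = 0.59). The part of these genes in the variation of GSTU22, GSTU27 and GSTU21 was not tested.

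The deviations of GSTU28 followed those of GSTU26, another tau gene (r = 0.96, rho = 0.85, r = 0.94 without the 2 farthest arrays), and of the root hair expansins EXPA7 (r = 0.95, rho = 0.89, r = 0.91) and EXPA18 (r = 0.94, rho = 0.94, r = 0.90). GSTU28 varied against SIR, the sulfite reductase (r = -0.91, rho = -0.86, r = -0.85), the reductase GR1 (r = -0.83, rho = -0.79, r = -0.75) and UGT73B4 (r = -0.80, rho = -0.79, r = -0.70). The expansins also went with other genes of the 8, EXPA18 having r = 0.82 with GSTU27 (rho = 0.78, r = 0.67) and r = -0.74 with GSTU22 (rho = -0.74, r = -0.63). PYK10, the other measured root marker, went the opposite way. It had r = -0.67 with GSTU28 (rho = -0.63, r = -0.49) and r = -0.60 with GSTU27 (rho = -0.57, r = -0.71). With GSTU22 it had r = 0.78 (rho = 0.81, r = 0.74). GSTU28 and EXPA18 were both lowest in replicate 2, in 3 and 4 of the 4 groups. The amount of root hair tissue on each array was not measured apart from these genes, and its part was not tested.

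**Figure D4:**
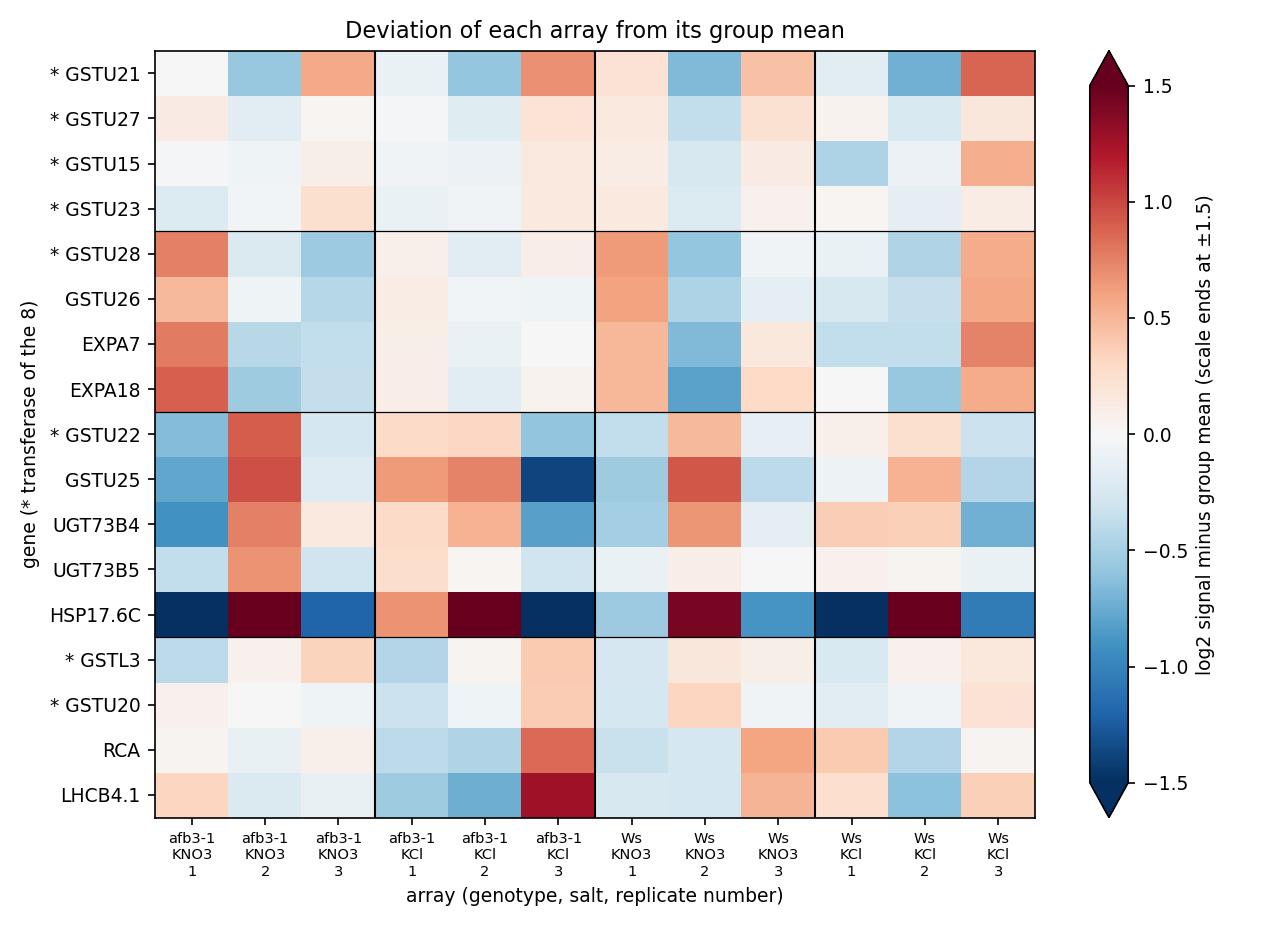
Heat map of the deviation of each array from its group mean (colour, log2 units, red above and blue below the mean, ending at ±1.5) for the 8 genes (starred) and for listed genes set beside them (rows), on the 12 arrays by group and replicate number (columns). GSTU28 shares its colours with GSTU26, EXPA7 and EXPA18, and GSTU22 with GSTU25, the UGT73B genes and HSP17.6C, which was highest in replicate 2 in all 4 groups.

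High correlations of this kind were common. Of the named probe sets, between 16.4% and 19.1% correlated beyond 0.7 in either direction with GSTU21, GSTU28, GSTU15, GSTU22 and GSTU27, against 4.06% with GSTU23, 4% with GSTU20 and 3.66% with GSTL3. GSTU25 ranked 28 of 13512 probe sets by its r with GSTU22, and GSTU26 ranked 13 of 13512 by its r with GSTU28. GSTU20 and GSTL3, the genes higher in afb3-1 in every pair, varied together more loosely (r = 0.66, rho = 0.62, r = 0.51 without the 2 farthest arrays).

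For GSTU23 and GSTU21, the 2 of the 8 genes with the smallest nitrate p, the most similar genes among 13505 named probe sets were taken by Pearson r of the signal over the 12 arrays. For GSTU21 they were AT2G38640 (r = 0.97), AT2G30670 (r = 0.96) and AT5G06570 (r = 0.96). For GSTU23 they were AT1G51790 (r = 0.89), AT1G13460 (r = 0.86) and AT4G20860 (r = 0.85). A correlation over all 12 arrays includes the group means, so the choice itself fixed how these 6 genes differ between groups, and no test of them is given.

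Around the 8 genes, the other measured steps of glutathione conjugation were mostly without calls, while 2 of the 3 measured genes of sulfate assimilation rose with nitrate in both genotypes. limma called 1.79% of all probe sets higher with nitrate in afb3-1 and 1.85% in Ws, and 0.967% and 1.05% lower. Of 23 other listed tau and lambda genes 4 were measured, and 1 of these, GSTU18, fell with nitrate in Ws. GSTU18 had 3.29, 3.34 and 3.17 in Ws KNO3, against 3.64, 3.77 and 4.24 in Ws KCl, a difference of -0.62 ± 0.15 (limma adjusted p = 0.0484). In afb3-1 it had 3.31, 3.54 and 3.38 in KNO3, against 3.93, 3.84 and 3.75 in KCl, and -0.43 ± 0.15 (limma adjusted p = 0.214). The KNO3 arrays lay below the KCl arrays in both genotypes. The call in Ws held under 2 of 19 alternative settings, with adjusted p between 0.0326 and 0.207, and without KCl replicate 3 the difference was -0.44 (limma adjusted p = 0.0829). The same omission brought the difference in afb3-1 past the threshold (limma adjusted p = 0.0477).

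GSTU16, GSTU25 and GSTU26, the other 3, had no call, and the 4 genes had nitrate medians of -0.36 in afb3-1 and -0.15 in Ws. Neither of the 2 measured genes of other classes (22 listed; GSTF4 differed by -0.17 in afb3-1 and -0.13 in Ws), neither of the 2 measured glutathione genes (18 listed; the reductase GR2 differed by 0.12 in afb3-1 and -0.06 in Ws) and none of the 3 measured detoxification genes (9 listed; UGT73B5 differed by -0.57 in afb3-1, limma adjusted p = 0.390, and by -0.22 in Ws) passed the test. No listed ABCC transporter (6 genes) or TGA factor (7 genes), the bZIP regulators known to induce many tau genes, had a named probe set.

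Sulfate assimilation supplies the cysteine from which glutathione is made, and 2 of its 3 measured genes (20 listed) rose in both genotypes. SIR, the sulfite reductase, had 8.31, 8.60 and 8.68 in afb3-1 KNO3, against 7.50, 7.43 and 7.22 in afb3-1 KCl, a rise of 1.15 ± 0.15 (limma adjusted p = 0.00152). In Ws it rose by 1.30 ± 0.15 (limma adjusted p = 0.000642). APS3, an ATP sulfurylase that activates sulfate, rose by 1.07 ± 0.12 in afb3-1 (limma adjusted p = 0.000571) and by 0.84 ± 0.12 in Ws (limma adjusted p = 0.00304). APS4, another ATP sulfurylase, differed by -0.03 in afb3-1 and by -0.02 in Ws. The calls of SIR and APS3 held in all 19 alternative settings in both genotypes.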

How the data were processed

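Biotin labelling of root RNA followed an Affymetrix 3′ IVT kit, per the labels' protocols, and each of 12 arrays gave 1 column of log2 signals for 22810 probe sets, normalized by the authors before they deposited them. The sources used here do not give the method of background correction, normalization or summarization. The log2 scale was read from the deposited values: hybridization controls rose by 0.918 per doubling, and sorted arrays differed from their mean by at most 0.176, so no further normalization was applied. A normalization between arrays hides a shift shared by most genes.

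The 64 array controls were left out. Gene names came from the platform annotation (13513 probe sets with 1 gene, 13436 of them found in the TAIR10.1 gene table). Coordinates are left out because the sources used here do not name the build of the annotation. Groups came from the sample titles. limma 3.58.1 in R 4.3.3 fitted 1 mean per group to all 12 arrays, with empirical Bayes moderation. Tests were two-sided, adjusted by Benjamini-Hochberg over 22746 probe sets, threshold 0.05. The script was tested on simulated data.

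The 8 genes, the 10 gene lists (136 entries, 20 measured) and the tests were chosen with earlier results of these data known. The text names all 8 genes, the 3 probe sets most similar to each of the 2 with the smallest nitrate p, list genes past the threshold, and examples of lists without a call. Other list genes were named after their values were seen. Deviations of same-numbered arrays correlated by 0.30 to 0.66 between genotypes within a salt (6 pairs), so numbers pair arrays for genotype comparisons, as the data show. The errors and p given for those comparisons come from the fit without such a block, except where a block is named. Between salts within a genotype they correlated by -0.28 to 0.54, not above 0.1 for every pair, so KNO3 and KCl arrays were not treated as paired. Alternatives were median centring, quantile normalization, omitting the dimmest tertile, a replicate block, fitting only the compared groups, moderation with a trend and robust prior, and omitting each array in turn.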

Additional observations from a re-analysis of the deposited data

Results flagged for a closer look

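GSTU23 was flagged because its same-numbered arrays differed in opposite directions between genotypes in the 2 salts. The share of all probe sets with this pattern of signs was not computed, so the pattern is a description only. afb3-1 minus Ws was -0.57, -0.06 and -0.05 in KNO3 and 0.10, 0.30 and 0.25 in KCl. The difference of the nitrate responses, afb3-1 minus Ws, was -0.44 on the log2 scale and did not pass the test (limma adjusted p = 0.999).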

How the results depend on the processing

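The 8 genes had no call under any alternative except the replicate number as a fixed block over all arrays, where 1 gene was called with nitrate in afb3-1 and 1 in Ws. It was GSTU21 in both, with limma adjusted p of 0.00226 and 0.00181. The same-numbered KNO3 minus KCl differences of GSTU21 were 1.14, 1.05 and 0.92 in afb3-1 and 1.46, 1.15 and 0.66 in Ws. The labels do not say that a number is shared between salts, and over all probe sets the deviations of same-numbered arrays of a genotype correlated across salts by 0.53 and 0.54 for number 2 and by -0.28 to 0.07 for numbers 1 and 3. With same-numbered arrays of a salt as a block, no call of the 8 genes changed. GSTU20 in KNO3 came to a limma adjusted p of 0.763 with this block as random and 0.366 with it as fixed. Apart from omitted arrays, 291 values of the 8 genes kept their direction and side of the threshold, 3 changed sign and 2 passed it. The sign changes were GSTU23 with nitrate in afb3-1, at 0.024 after quantile normalization and 0.030 after median centring, and the GSTU21 genotype difference of responses, at 0.0035 after median centring. With each array omitted in turn, 429 values kept both and 51 changed sign, and the count of called genes was 0 throughout. The ranges that crossed 0 with nitrate were -0.13 to 0.10 for GSTU23 and -0.18 to 0.23 for GSTL3 in afb3-1, and -0.27 to 0.027 for GSTU20 and -0.43 to 0.18 for GSTU28 in Ws. Between genotypes in KNO3 they were -0.10 to 0.080 for GSTU15, -0.43 to 0.19 for GSTU21, -0.77 to 0.015 for GSTU22, -0.18 to 0.12 for GSTU27 and -0.51 to 0.19 for GSTU28. In KCl they were -0.47 to 0.037 for GSTU15, -0.40 to 0.39 for GSTU21, -0.13 to 0.080 for GSTU27 and -0.15 to 0.35 for GSTU28. For the difference of responses they were -0.022 to 0.48 for GSTU15, -0.49 to 0.31 for GSTU21, -0.44 to 0.34 for GSTU22, -0.17 to 0.14 for GSTU27, -0.58 to 0.11 for GSTU28 and -0.31 to 0.10 for GSTL3. The cause was not tested. Over all probe sets, omitting an array gave 380 to 772 nitrate calls in afb3-1 (628 with all arrays) and 370 to 680 in Ws (658), and fitting only the compared groups gave 338 in Ws. The block within a salt as a fixed effect was not run for the nitrate comparisons, since such a block holds 1 salt, nor the fit of only the compared groups for the difference of responses, which uses all 4.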
